A study of Drosophila melanogaster with 16 samples.

Results

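Cytochrome P450 genes of Drosophila melanogaster were followed in the trachea of larvae exposed to cigarette smoke or to air. A gene was taken when its symbol in the authors' deposited tables began with Cyp and a digit and its normalised read count was 10 or more in 4 or more libraries of females or of males. Of 17559 genes, 84 had such a symbol and 61 reached that level. The deposited description of 1 of the 61, Cyp1, is that of a cyclophilin, so 60 P450 genes are described here, 13 of the Cyp4 family, 19 of the Cyp6 family and 28 of other families. By clan, the deeper grouping of these families, 29 belonged to clan CYP3, which holds Cyp6, 20 to clan CYP4, 4 to clan CYP2 and 7 to the mitochondrial clan.

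P450 enzymes are haem proteins that insert oxygen into lipids, hormones and foreign compounds. Those in the endoplasmic reticulum draw electrons through P450 reductase, and those in mitochondria through a ferredoxin and its reductase. In insects the Cyp6 family is best known for oxidising plant toxins and insecticides, and the Cyp4 family for work on fatty acids and hydrocarbons, while single members of other families make or inactivate the moulting hormone ecdysone. The larval trachea is a branched epithelial tube lined with cuticle that carries air to the tissues, so its cells meet inhaled compounds directly.

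RNA was sequenced from the trachea of larvae of the wild-type strain Canton S, split into females and males. The smoke groups breathed mainstream smoke from research cigarettes, at an intensity of 4 puffs per min over 60 min, and the air groups served as their controls. The groups were female smoke, female air, male smoke and male air, with 4 libraries in each and 16 in all. The labels give no larval age and do not say whether the libraries of a group came from separate animals, cultures or pools, so each p-value measures the spread between these libraries only, which may be partly technical.

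Libraries held 15036560 to 23434521 reads. The columns of replicates 1 and 2 are named in another style than those of replicates 3 and 4; the first pair had 19367755 to 23434521 reads per library and the second pair 15036560 to 19431772. Of 12 tracheal marker genes 10 were found and none of these was at 0 in a whole group; their summed level was 11602 to 13461 CPM (reads scaled to a common library total) in female smoke, 8936 to 12872 CPM in female air, 12462 to 16457 CPM in male smoke and 9620 to 13541 CPM in male air. Markers of attached tissues were also present. The 8 fat body markers summed to 1216 to 5742 CPM in female smoke, 871 to 6338 CPM in female air, 222 to 1720 CPM in male smoke and 994 to 34558 CPM in male air. The upper end of the last range is male air replicate 3, which stood apart from the 5334 CPM or less of the other 3 male air libraries. That library also held 7667 CPM of 8 salivary gland markers, against at most 35.5 CPM in the other male air libraries, and it held the highest of the 8 male values for 27 of the 60 P450 genes. All 8 fat body markers were detected in every group. The 11 muscle markers found summed to 2097 to 6033 CPM in female smoke, 1914 to 11860 CPM in female air, 1377 to 3871 CPM in male smoke and 3538 to 11526 CPM in male air, and in males 4 of them fell with limma, 0 with edgeR and 8 with DESeq2, while 10 had an unadjusted p under 0.05 in limma. The 5 Malpighian tubule markers summed to 21.1 to 38.4 CPM in female smoke, 14.4 to 62.3 CPM in female air, 6.82 to 12.5 CPM in male smoke and 18.9 to 46.2 CPM in male air. The 8 salivary gland markers summed to 3.29 to 11.9 CPM in female smoke and 59.7 to 323 CPM in female air, and 7 of 7 tested fell in females, while in males 0 of 6 passed with limma, edgeR or DESeq2, although all 6 had an unadjusted p under 0.05 in edgeR, against 0 in limma and DESeq2. Of the tracheal markers, 3 of 10 rose and 1 fell in females with limma, where edgeR called 1 higher and DESeq2 5, and 2 of 10 rose in males. No fat body, midgut or oenocyte marker passed in either sex with limma or edgeR. In males, however, 8 of 8 fat body and 2 of 3 oenocyte markers had an unadjusted p under 0.05 in limma, and DESeq2 called the same numbers, 8 and 2, lower; in females 1 of 4 midgut markers had such a p, and DESeq2 called 1 lower. Over all genes tested, 2928 of 8877 in females and 2742 of 8705 in males had an unadjusted p under 0.05 in limma. In males both Malpighian tubule markers tested fell with limma and DESeq2 and 0 with edgeR. Of the male hemocyte markers 1 of 7 fell with limma and edgeR and 5 with DESeq2, and 6 had an unadjusted p under 0.05 in limma; 1 of 4 ring gland markers fell with each tool. In such bulk RNA, fewer cells of a type and less RNA per cell cannot be told apart, and the part of these tissues in the P450 results was not tested.

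The level of P450 RNA in trachea was dominated by genes outside the Cyp4 and Cyp6 families. Scaled by transcript length, Cyp313b1 (FBgn0037601) was the most abundant member, with a normalised read count per kb of 1842 in female smoke, 1617 in female air, 1657 in male smoke and 1571 in male air. This gene alone took 17.1% of the P450 normalised counts in female smoke, 17.8% in female air, 23.2% in male smoke and 17.0% in male air. Next came Cyp6a17, which is known from work on temperature preference, at a mean of 721 per kb over the 16 libraries, Cyp12e1 of the mitochondrial clan at 579 per kb and Cyp301a1, a gene needed for the adult cuticle, at 465 per kb. Cyp9f2 at 456 per kb and Cyp28a5 at 449 per kb followed. In the Cyp4 family Cyp4g1, the oenocyte enzyme that completes cuticular hydrocarbons, led with 301 per kb, followed by Cyp4c3 at 293 per kb and Cyp4d1 at 151 per kb, and in the Cyp6 family Cyp6d4 at 263 per kb and Cyp6u1 at 230.5 per kb stood behind Cyp6a17. The tables of the sexes were normalised separately, so no test was made between female and male levels.

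**Figure D1:**
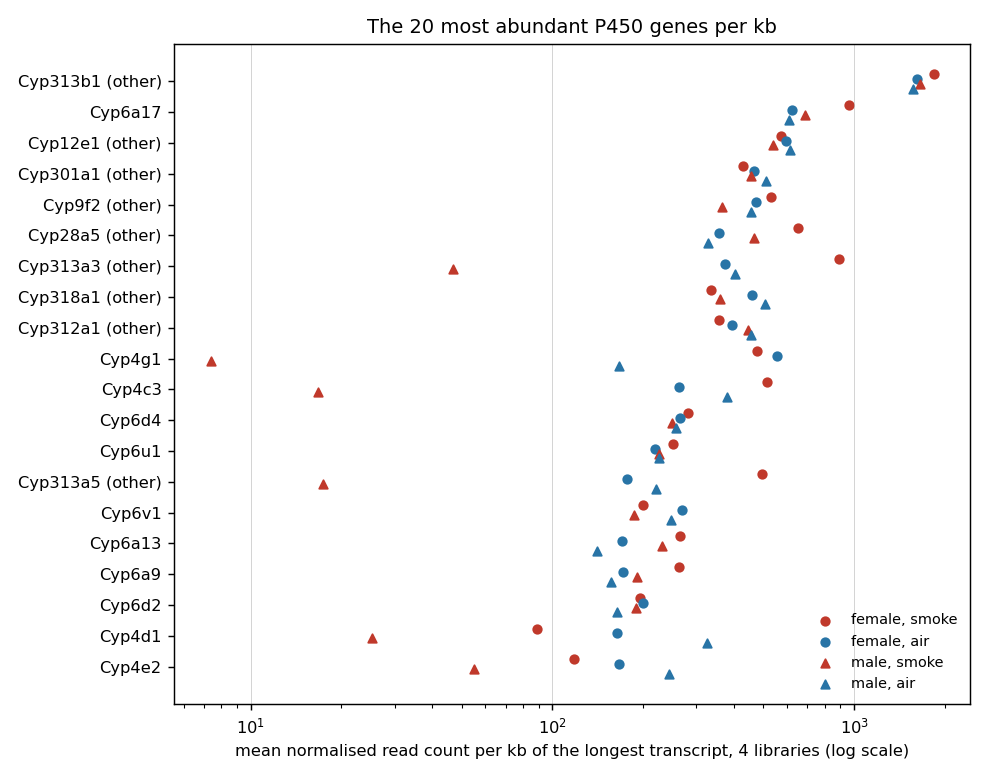
Mean normalised read count per kb of the longest transcript (log axis) of the 20 most abundant P450 genes, with 1 point per group of 4 libraries; circles are females, triangles males, red smoke and blue air. The points of Cyp313b1, Cyp12e1, Cyp301a1, Cyp6d4 and Cyp6u1 lie close together, while the male smoke points of Cyp313a3, Cyp4g1, Cyp4c3 and Cyp313a5 lie far to the left of the other 3, at 46.9, 7.36, 16.8 and 17.3 per kb.

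None of the abundant members Cyp313b1, Cyp12e1, Cyp301a1, Cyp9f2, Cyp6d4 and Cyp6u1 passed the test in either sex. Cyp313b1 read 3649, 4049.9, 3877 and 4179 in female smoke and 3069, 3312, 3684 and 3763 in female air, and the groups overlapped, with a log2 difference of 0.19 ± 0.09 (SE; adjusted p = 0.165). Here and below, differences are smoke minus air on the log2(normalised count + 1) scale, which understates the change of low genes, and adjusted p-values come from limma with Benjamini-Hochberg adjustment over all genes tested in that sex. In males Cyp313b1 differed by 0.08 ± 0.09 (adjusted p = 0.613). Cyp12e1, Cyp301a1 and Cyp9f2 differed by -0.06 ± 0.14, -0.12 ± 0.10 and 0.19 ± 0.17 in females and by -0.23 ± 0.21, -0.16 ± 0.11 and -0.35 ± 0.20 in males. Cyp6d4 differed by 0.09 ± 0.12 in females, or -0.023 with libraries rescaled to the same total, and by -0.04 ± 0.14 in males. Cyp6u1, at 494, 527, 493 and 529 in female smoke and 459, 406, 483 and 426 in female air, did not overlap between the female groups and had a difference of 0.21 ± 0.08 with an adjusted p of 0.116; its male difference was 0.00 ± 0.09, or -0.071 with libraries rescaled to the same total.

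In females, 5 of the 59 P450 genes tested rose in smoke, 1 fell and 53 did not pass the test (limma, adjusted p under 0.05). Among all 8877 genes tested in females, 10.9% rose and 7.09% fell, so the shares of P450 genes called were no larger than that background. That all-gene split was 970 higher and 629 lower, and 644 higher and 1042 lower with libraries rescaled to the same total, which moved the median of all genes to -0.13. The genes that rose were Cyp4c3, Cyp4d20, Cyp6a20, Cyp6a21 and Cyp6a23, and the gene that fell was Cyp6v1. edgeR on the recovered reads called the same 6, and DESeq2 called these and 7 more, 8 higher and 5 lower in all; with the naming style of the columns as a batch term 9 rose and 2 fell. The median log2 difference over the 59 was 0.21, against -0.02 over all genes, with 35 positive and 24 negative. The values of smoke and air did not overlap for 8 genes that were higher and 1 that was lower, against 13.7% and 10.8% of all genes. With replicates 1 and 2 alone 0 rose and 0 fell, and with replicates 3 and 4 alone 3 rose and 0 fell; without female air replicate 3 the counts were 9 higher, and without female air replicate 2 they were 5 lower. All 6 genes called kept their direction in both pairs. Their smoke and air values did not overlap over the 4 libraries, so that direction was fixed. With a filter of 10 in 4 libraries, Cyp6a20 entered the female test through its smoke libraries alone, so it had to differ.

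In males, 4 of the 56 P450 genes tested rose in smoke, 9 fell and 43 did not pass the test. Among all 8705 genes tested in males 8.89% rose and 4.64% fell, 774 higher and 404 lower, against 444 higher and 467 lower with libraries rescaled to the same total. The genes that fell were Cyp4ac1, Cyp4ac3, Cyp4c3, Cyp4d20 and Cyp4e2 of the Cyp4 family, Cyp6d5 and Cyp6v1 of the Cyp6 family, and Cyp309a1 and Cyp313a5; those that rose were Cyp6g2, Cyp6t3, Cyp18a1 and Cyp28d2. edgeR called the same 13 genes, with Cyp309a1, Cyp28d2 and Cyp6d5 at adjusted p-values of 0.0486, 0.0492 and 0.0495. DESeq2 called these 13 and others, 5 higher and 21 lower in all. The median log2 difference was -0.32, against -0.01 over all genes, with 21 positive and 35 negative. Smoke and air did not overlap for 4 genes that were higher and 12 that were lower, against 13.4% and 9.11% of all genes. Cyp6g2 and Cyp6t3 entered the male test through smoke libraries alone, and Cyp4ac3 and Cyp309a1 through air libraries alone, so these 4 had to differ. Without male air replicate 3, the library rich in fat body markers, 6 rose and 8 fell. The count that fell was between 2 and 8 when single libraries were left out, with 2 without male smoke replicate 1, 3 without male air replicate 4, 4 without male air replicate 2 and 5 without male smoke replicate 3. The count that rose was 0 without male smoke replicate 1 or 3, 1 without male smoke replicate 4 or male air replicate 1, and 2 without male air replicate 2. With replicates 1 and 2 alone 1 rose and 3 fell, and with replicates 3 and 4 alone 0 rose and 0 fell. All 13 genes called kept their direction in both pairs. Since their smoke and air values did not overlap over the 4 libraries, that direction was fixed.

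**Figure D2:**
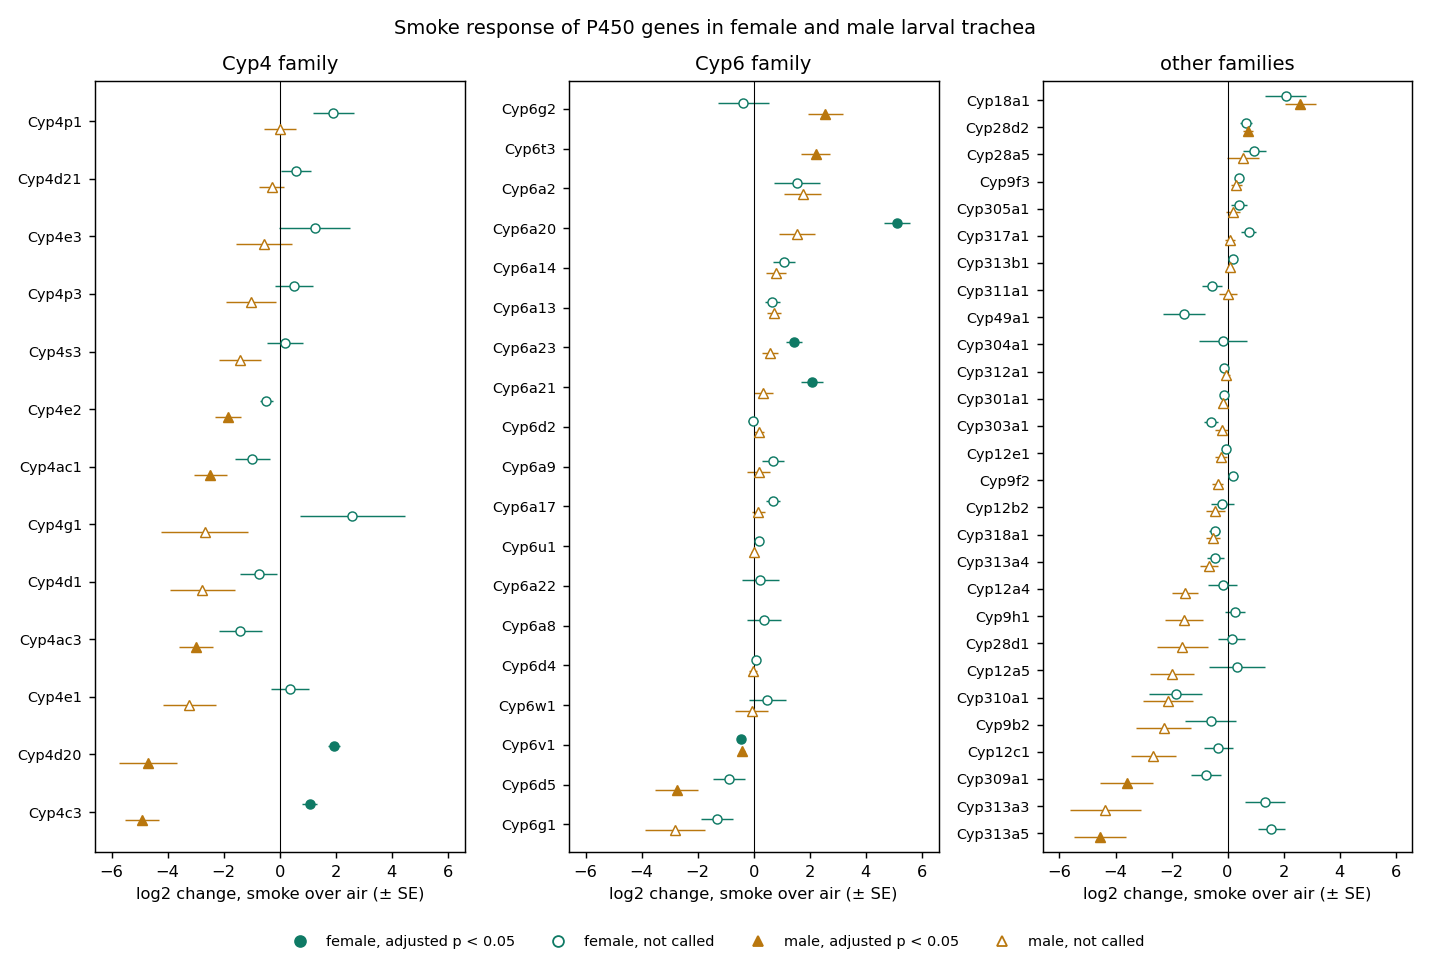
Log2 difference of smoke over air for each P450 gene in females (green circles) and males (orange triangles), with bars of 1 SE from limma and filled symbols for an adjusted p under 0.05; the 3 panels hold the Cyp4, Cyp6 and other families, ordered by the male difference. In the Cyp4 panel 12 of the 13 male symbols lie left of 0, while the Cyp6 panel has filled female symbols to the right for Cyp6a20, Cyp6a21 and Cyp6a23.

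The female and male responses differed for 4 of the 55 P450 genes tested in both sexes, in 1 model over 16 libraries. The difference between the sexes is given as the female minus the male smoke response, on the log2 scale. All 4 differences were in the direction of a higher response in females, a direction called for 2.00% of the 8606 genes tested, while 0.174% were called the other way and 2.17% in either direction. The 4 genes were Cyp4c3, Cyp4d20, Cyp313a5 and Cyp6a20. The difference between the sexes was positive for 45 of the 55 and negative for 10, with a median of 0.68 against -0.01 over all genes. In that model 0 P450 genes were called in the opposite direction. Of the 55, 13 had an unadjusted p under 0.05 in either direction, as did 1203 of all 8606 genes tested. DESeq2 called 5 P450 genes and edgeR 4. Of the 3 genes called in both sexes, Cyp6v1 fell in both, and Cyp4c3 and Cyp4d20 rose in females and fell in males.

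Cyp4c3 (FBgn0015032), a Cyp4 gene on chromosome arm 3R, read 1003, 1073, 1039 and 810.2 in female smoke and 765, 279, 548 and 404 in female air. Each female smoke library was above each female air library. Among males it read 18.4, 17.9, 83.3 and 8.20 in smoke and 633, 958, 487 and 805 in air, so that every male smoke library was far below every male air library. The difference was 1.06 ± 0.28 in females (adjusted p = 0.0341) and -4.92 ± 0.61 in males (adjusted p = 0.00265), and the sexes differed by 5.98 ± 0.72 (adjusted p = 0.000286). The female call rested on the full set: it passed in 2 of 8 fits that left out a library, without female air replicate 1 or 2, and had adjusted p-values up to 0.0872 in the others, whereas the male call and the difference between the sexes passed in all 8 and all 16. With libraries rescaled to the same total the female adjusted p was 0.0522. With replicates 1 and 2 alone the female and male differences were 1.16 and -5.35, and with replicates 3 and 4 alone 0.96 and -4.49.

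Cyp4d20 (FBgn0035344) moved in the same way. It read 332, 439, 396 and 298 in female smoke and 91.2, 72.1, 88.2 and 137 in female air, with no overlap. In males it read 4.85, 18.7, 38.4 and 0 in smoke and 172, 209, 144 and 402 in air, again with no overlap and with the opposite order. The difference was 1.93 ± 0.21 in females (adjusted p = 0.00123) and -4.71 ± 1.04 in males (adjusted p = 0.0246), and the sexes differed by 6.64 ± 1.13 (adjusted p = 0.00408). The male call passed in 4 of 8 fits without a library; it was lost without male smoke replicate 1 or male air replicate 1, 2 or 4, at adjusted p-values of 0.0752, 0.0506, 0.0617 and 0.0661. Within replicates 1 and 2 the sexes differed by 6.37, and within replicates 3 and 4 by 6.90.

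Cyp313a5 (FBgn0038005), a clan CYP4 gene of another family, had the same pattern in its values. Female smoke libraries read 1133, 981, 576 and 394 and female air libraries 519.6, 184, 125 and 274, and these overlapped. Male smoke libraries read 13.6, 15.3, 78.0 and 1.17, all below the 401, 342, 214 and 417 of male air. The female difference of 1.56 ± 0.48 did not pass the test (adjusted p = 0.0575). Without female air replicate 1 its adjusted p was 0.0273, the only pass among 8 fits without a library (up to 0.135 in the others). The male difference was -4.55 ± 0.93 (adjusted p = 0.0192), and the sexes differed by 6.11 ± 1.13 (adjusted p = 0.00745). The male call was lost without male smoke replicate 1, male air replicate 2 or male air replicate 4, at adjusted p-values of 0.0581, 0.0521 and 0.0534, while the difference between the sexes passed in all 16 fits without a library. Cyp313a3, with at most 1 other protein-coding gene between it and Cyp313a5 on arm 3R, is named for that place. It read 2301, 2145, 1518 and 364 in female smoke and 1594, 375, 296 and 379 in female air, with overlap. It read 67.9, 29.0, 235 and 1.17 in male smoke and 1216, 567, 652 and 419.8 in male air, without overlap. Its female and male differences were 1.33 ± 0.71 and -4.36 ± 1.26 (adjusted p = 0.232 and 0.0552), and its difference between the sexes of 5.70 ± 1.55 had an adjusted p of 0.0842, so none passed. Without male smoke replicate 3 or 4 the male adjusted p was 0.0310 or 0.0418, and without male smoke replicate 3 that of the difference between the sexes was 0.0211. The other fits without a library did not pass, with adjusted p-values up to 0.110 in males and 0.168 between the sexes.

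Cyp6a20 (FBgn0033980), on arm 2R and known in flies as a gene that affects aggression, was nearly silent in female air. It read 79.1, 83.4, 81.5 and 171 in female smoke and 0.773, 0.767, 3.78 and 3.31 in female air. Among males it read 19.4, 12.8, 23.8 and 25.8 in smoke and 3.30, 2.34, 6.36 and 23.0 in air, where only male air replicate 4 reached the level of the smoke libraries. The female difference was 5.12 ± 0.46 (adjusted p = 0.000513), the male difference of 1.55 ± 0.63 did not pass (adjusted p = 0.137), and the sexes differed by 3.57 ± 0.80 (adjusted p = 0.0305). That last call was the least stable of the 4: it passed in 7 of 16 fits without a library, with adjusted p-values up to 0.0716. Without male air replicate 4 the male difference was 2.14 (adjusted p = 0.0407), the only male pass among 8 fits without a library (up to 0.262 in the others). Cyp6a20 entered the female test through its smoke libraries alone, so its female difference had to be positive. That difference is also part of the one between the sexes.

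**Figure D3:**
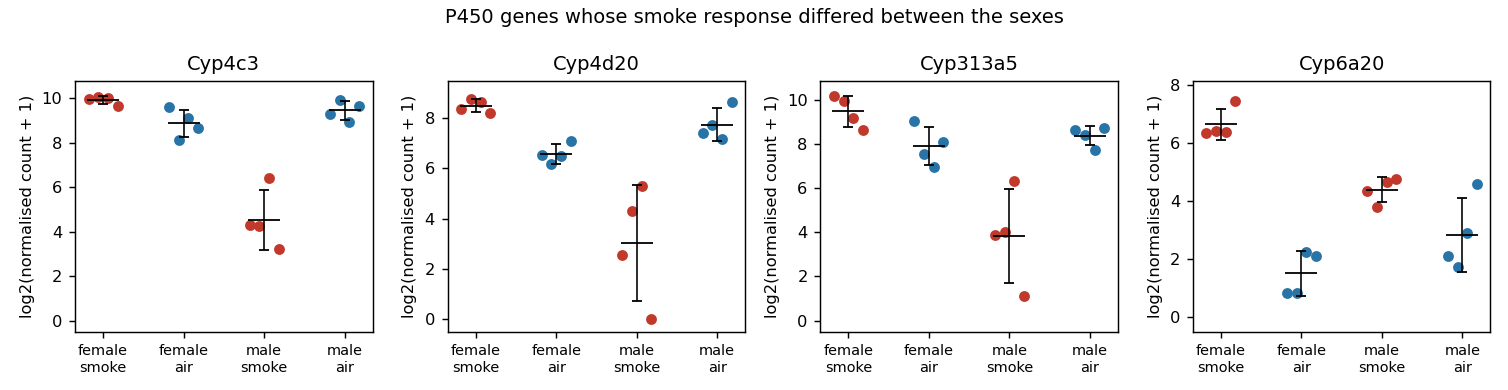
Log2(normalised count + 1) of the 4 P450 genes whose smoke response differed between the sexes, with 1 point per library, and the mean and SD of each group of 4 as bars; red is smoke and blue air. For Cyp4c3, Cyp4d20 and Cyp313a5 the male smoke points lie below all others, and for Cyp6a20 the female air points, at normalised counts of 0.767 to 3.78, lie below every smoke point.

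Across the Cyp4 family as a whole, the male smoke libraries stood lowest. The normalised counts of the 13 genes summed to 3398 ± 894 in female smoke, 3279.9 ± 3019.8 in female air, 454 ± 224 in male smoke and 3030.4 ± 2249.6 in male air (SD, n = 4 each). The female groups overlapped, at 2590.0 to 4675 in smoke and 749.7 to 7655 in air, whereas male smoke at 238 to 705 lay below male air at 1414 to 6342. In females 2 of 13 Cyp4 genes rose and 0 fell, against 10.9% and 7.09% of all genes tested, and the median difference was 0.51. In males 0 rose and 5 fell, against 8.89% and 4.64% of all genes tested, 12 of the 13 differences were negative and the median was -2.49. Of those that fell, Cyp4ac3 entered the male test through air libraries alone, so it had to differ. DESeq2 called 1 of the 13 lower in females and 8 lower in males. Without male air replicate 3 still 5 fell, and the median was -1.37 with 11 of 13 negative. Over the 8 male fits without a library, between 2 and 6 Cyp4 genes fell and the median lay between -2.78 and -1.37. The difference between the sexes was positive for all 13, in the full set and in each of the 16 fits without a library, with a median of 1.81, and 2 of the 13 passed. Markers of some other tissues moved in the same direction as the Cyp4 genes. Their median male differences were -2.99 for fat body, -2.61 for muscle, -2.44 for Malpighian tubule, -0.93 for oenocyte and -0.82 for hemocyte markers. Here and between the sexes, 8 fat body, 11 muscle, 2 Malpighian tubule, 3 oenocyte and 7 hemocyte markers were tested. The medians of the difference between the sexes were 2.76 for fat body, 1.81 for Malpighian tubule, 1.45 for muscle, 1.24 for oenocyte and 1.04 for hemocyte markers, of which 1 hemocyte marker passed the test between the sexes. Midgut, salivary gland and ring gland markers, of which 3, 6 and 4 were tested, also had negative male medians, of -1.56, -2.93 and -0.15. Their medians of the difference between the sexes went the other way, at -2.09, -1.32 and -0.34. The part of all these tissues in the Cyp4 values was not tested.

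The genes Cyp4ac1 and Cyp4ac3, with at most 1 other protein-coding gene between them on arm 2L, both fell in males. Cyp4ac1 read 28.1, 46.9, 43.7 and 17.6 in male smoke and 98.3, 244, 520.2 and 89.1 in male air, and Cyp4ac3 read 5.82, 9.37, 1.32 and 3.51 and 42.9, 21.0, 94.1 and 30.7 in the same groups. Neither gene overlapped between the male groups. Their male differences were -2.49 ± 0.59 (adjusted p = 0.0306) and -2.99 ± 0.60 (adjusted p = 0.0182). In females Cyp4ac1 read 53.9, 51.9, 86.2 and 58.6 in smoke and 459, 45.2, 129.8 and 79.5 in air. Cyp4ac3 read 15.2, 10.2, 18.6 and 6.66 and 30.9, 6.13, 92.0 and 64.1 in the same groups. Both genes overlapped between the female groups, with adjusted p-values of 0.322 and 0.241. Without female air replicate 2 that of Cyp4ac3 was 0.0169, the only pass among 8 fits without a library (up to 0.451 in the others). The Cyp4ac3 male call passed in all 8 fits without a library. That gene entered the male test through its air libraries alone, so it had to differ. The Cyp4ac1 call passed in 4 of 8, and was lost without male smoke replicate 1, 3 or 4 or male air replicate 2, at adjusted p-values of 0.0558 to 0.0865.

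Cyp4e2 fell in males, at 77.6, 137, 95.2 and 103 in smoke and 219, 269, 1048 and 297 in air. The highest male air value, in replicate 3, was far above the other 3, and the groups did not overlap. The male difference was -1.85 ± 0.47 (adjusted p = 0.0375); without male air replicate 3 it was -1.35 (adjusted p = 0.0111). The call was lost in 5 of 8 fits without a library, which were those without male smoke replicate 1, 3 or 4 or male air replicate 2 or 4 (adjusted p = 0.0639 to 0.104). In females Cyp4e2 read 187, 182, 233 and 284 in smoke and 320.1, 199, 374 and 359 in air. The female difference was -0.48 ± 0.23 (adjusted p = 0.186). Without female air replicate 2 the adjusted p was 0.0267, the only pass among 8 fits without a library (up to 0.350 in the others).

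Cyp4g1 and Cyp4e3, a gene tied to permethrin tolerance, varied widely between air libraries. Cyp4g1 read 419, 834, 2002 and 1085 in female smoke and 5.41, 25.3, 4238 and 803 in female air, and 11.6, 5.96, 43.7 and 5.85 in male smoke and 14.9, 7.79, 1229.9 and 259.7 in male air. Smoke and air overlapped in each sex, and the female mean was lower in smoke while the mean of the log2 values was higher. The differences were 2.59 ± 1.88 in females and -2.67 ± 1.55 in males (adjusted p = 0.383 and 0.275), and the female one was -0.22 with edgeR and -0.23 with DESeq2. The 6 oenocyte markers found, which do not include Cyp4g1, summed to 46.0 to 96.9 CPM in female smoke, 26.2 to 205 CPM in female air, 21.8 to 38.7 CPM in male smoke and 37.1 to 101 CPM in male air, with the highest value of each sex in the same library as the highest Cyp4g1 value, air replicate 3. Their part in the Cyp4g1 values was not tested. Cyp4e3 read 180.1, 194, 270.2 and 305 in female smoke and 118, 9.20, 1455 and 51.9 in female air, with a difference of 1.24 (adjusted p = 0.548) that was -0.78 with edgeR and -0.79 with DESeq2. In males it read 44.6, 288, 51.6 and 23.4 in smoke and 44.6, 33.5, 535 and 95.8 in air, with a difference of -0.57 (adjusted p = 0.746) that was 0.26 without male air replicate 3. Cyp4d1 read 17.5, 13.6, 114 and 25.8 in male smoke and 65.3, 53.7, 1811 and 269 in male air, where replicate 3 again led, and its difference of -2.77 ± 1.15 did not pass (adjusted p = 0.143). Its female difference was -0.76 ± 0.68. The Cyp4 genes not named so far had male differences from -3.22 in Cyp4e1 to 0.01 in Cyp4p1, and female differences from 0.19 in Cyp4s3 to 1.91 in Cyp4p1, none of which passed.

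The Cyp6 family held 3 of the 5 female increases. In females 3 of 18 genes tested rose and 1 fell, against 10.9% and 7.09% of all genes tested. The female median was 0.43 with 13 positive differences, and DESeq2 called 2 lower. In males 2 of 17 rose and 2 fell, against 8.89% and 4.64% of all genes tested. The male median was 0.18, with 12 positive. Cyp6a20 in females and Cyp6g2 and Cyp6t3 in males entered the test through smoke libraries alone, so they had to differ. Without male air replicate 3 the male counts were 5 higher and 2 lower, and without female air replicate 3 the female counts were 5 higher and 1 lower. The 19 genes summed to 5916 ± 621 normalised counts in female smoke, 4719 ± 1164 in female air, 4555 ± 918 in male smoke and 4939 ± 1900.5 in male air (SD, n = 4 each).

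Cyp6a21 (FBgn0033981) read 136, 193, 137 and 239.8 in female smoke and 42.5, 23.0, 87.0 and 28.7 in female air, and Cyp6a23 (FBgn0033978) read 237, 198, 217 and 232 and 107, 41.4, 99.6 and 93.9 in the same groups. Neither overlapped, and both calls passed in all 8 fits without a library. The differences were 2.08 ± 0.40 (adjusted p = 0.0110) and 1.45 ± 0.29 (adjusted p = 0.0119). In males Cyp6a21 read 80.5, 43.5, 80.7 and 78.4 in smoke and 56.2, 38.9, 95.4 and 40.3 in air, and Cyp6a23 read 168, 102, 142 and 91.3 and 112, 67.7, 103 and 53.7, with overlap and adjusted p-values of 0.531 and 0.201. The female and male differences of these genes did not pass the test between the sexes, at 1.74 ± 0.55 for Cyp6a21 and 0.85 ± 0.43 for Cyp6a23 (adjusted p = 0.157 and 0.393). Without female air replicate 3 that of Cyp6a21 was 2.11 (adjusted p = 0.0330), the only pass among 16 fits without a library (up to 0.271 in the others).

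Cyp6a23 and Cyp6a20 lie in the longest run of neighbouring P450 genes found in the Ensembl annotation, 7 on arm 2R. Its order is Cyp6a22, Cyp6a17, Cyp6a23, Cyp6a9, Cyp6a20, Cyp6a8 and Cyp317a1. Cyp6a21 had no entry in that annotation, so whether it belongs to this run was not determined. In females all 7 differences were positive, from 0.24 to 5.12, and 2 passed, while 10.9% of all genes tested in females rose. The largest was that of Cyp6a20, which entered the female test through smoke libraries alone, so it had to be positive. In males 5 of the 7 were tested, all 5 differences were positive, from 0.08 to 1.55, and 0 passed in limma, edgeR or DESeq2. Of the 5, 1 (Cyp6a20) had an unadjusted p under 0.05 in limma, as did 2742 of all 8705 genes tested. Cyp6a17 read 1622, 1564, 1693 and 1775 in female smoke and 1367, 577, 1306 and 1064 in female air, which did not overlap. The difference was 0.70 ± 0.25 (adjusted p = 0.0914). Without female air replicate 2 the adjusted p was 0.0237, the only pass among 8 fits without a library (up to 0.186 in the others). In males Cyp6a17 differed by 0.17 ± 0.23. Cyp6a8, which foreign compounds induce in flies, read 15.99, 46.3, 41.9 and 68.0 in female smoke and 20.9, 11.5, 70.6 and 43.1 in female air, with a difference of 0.37 ± 0.62 (adjusted p = 0.730). Among males it read 5.82, 1.70, 21.2 and 4.68 in smoke and 8.26, 6.23, 160.3 and 42.2 in air and was below the level needed for the test. Cyp6a22, also untested in males, read 2.91, 3.41, 3.97 and 10.5 in male smoke and 9.91, 7.01, 85.2 and 20.1 in male air. The authors' deposited table lists both as lower in males. It gives -1.42 for Cyp6a8 and -1.55 for Cyp6a22, at false discovery rates of 0.0572 and 0.0332. Of the 60 genes, 28 lie in 11 such runs, in which successive members have at most 1 other protein-coding gene between them. How reads shared by close copies were counted is not given in the sources used here, so values of near-identical neighbours are uncertain.

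Cyp6v1 (FBgn0031126), on the X chromosome, fell in both sexes. It read 618, 523, 646 and 596 in female smoke and 795, 762, 799 and 871 in female air. In males it read 582, 529.9, 548 and 563 in smoke and 678, 678, 805 and 807 in air. The groups did not overlap in either sex. The differences were -0.44 ± 0.09 in females (adjusted p = 0.0118) and -0.41 ± 0.09 in males (adjusted p = 0.0206), smaller than those of the Cyp4 genes called. The male call was lost without male smoke replicate 1, male smoke replicate 3 or male air replicate 4, at adjusted p-values of 0.0502, 0.0520 and 0.0571. The sexes differed by -0.03 ± 0.12 (adjusted p = 0.955).

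Cyp6g2 and Cyp6t3 rose in males, where their levels in air were very low. Cyp6g2, which gives insecticide resistance when overexpressed, read 18.4, 13.6, 18.5 and 24.6 in male smoke and 3.30, 0, 3.82 and 4.79 in male air. Cyp6t3, needed in the prothoracic gland to make ecdysone, read 13.6, 11.1, 22.5 and 14.0 in male smoke and 2.48, 1.56, 1.27 and 5.75 in male air. Their male differences were 2.55 ± 0.62 and 2.21 ± 0.50 (adjusted p = 0.0346 and 0.0272), and each call passed in 3 of 8 fits without a library. Both genes entered the male test through smoke libraries alone, so they had to differ. In females Cyp6g2 read 15.99, 12.1, 11.6 and 14.7 in smoke and 153, 6.13, 7.56 and 12.1 in air, where replicate 1 lay far above the rest, and its difference of -0.37 ± 0.91 was 0.64 without that library. Female air replicate 1 also held 493 CPM of 8 ring gland markers, against 175 to 270.0 CPM in the other female air libraries and 196 to 266 CPM in female smoke; the part of that tissue was not tested. Cyp6t3 read 16.8, 13.9, 9.32 and 18.7 in female smoke and 7.73, 5.37, 8.82 and 6.63 in female air, below the level needed for the female test.

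The Cyp6 genes best known from insecticide and toxin work did not share 1 direction. Cyp6g1, the gene of DDT and neonicotinoid resistance, read 81.6, 38.9, 86.2 and 29.3 in female smoke and 166, 44.5, 168 and 261 in female air. Among males it read 13.6, 21.3, 124 and 28.1 in smoke and 135, 56.8, 1697 and 211 in air, where replicate 3 held most of the group's counts. Its differences of -1.32 ± 0.58 and -2.80 ± 1.06 did not pass (adjusted p = 0.152 in females and 0.113 in males). Without female air replicate 2 the female one was -1.84 (adjusted p = 0.0185). That was the only female pass among 8 fits without a library (adjusted p up to 0.319 in the others). Cyp6d5, which caffeine and phenobarbital induce, fell in males, at 17.5, 17.0, 45.0 and 49.2 in smoke and 111, 81.8, 941 and 176 in air. It read 37.9, 46.3, 137 and 81.3 in female smoke and 82.7, 53.7, 210.5 and 247 in female air. The male groups did not overlap and the female groups did. The Cyp6d5 difference was -2.74 ± 0.76 in males (adjusted p = 0.0493) and -0.88 ± 0.58 in females (adjusted p = 0.331); without male air replicate 3 the male difference was -1.99 (adjusted p = 0.0437), and each of the other 7 fits without a library lost the call, at adjusted p-values of 0.0564 to 0.129, as did a pseudocount of 5 (0.0531) and no filter (0.0544). Cyp6a2, inducible by foreign compounds, read 161, 95.5, 370.3 and 354 in female smoke and 55.7, 26.1, 389 and 47.5 in female air. In males it read 194, 144, 139 and 345 in smoke and 47.1, 46.7, 215 and 20.1 in air. In each sex the air values other than replicate 3 lay below the smoke values. The Cyp6a2 differences were 1.54 ± 0.82 and 1.76 ± 0.66 (adjusted p = 0.233 in females and 0.110 in males). Without air replicate 3 of the same sex they were 2.34 (adjusted p = 0.0272) and 2.40 (adjusted p = 0.0161). Leaving out that library removes the overlap by itself, so a larger difference was bound to follow. In each sex this was the only pass among 8 fits without a library. The others had adjusted p-values up to 0.419 in females and 0.222 in males. Cyp6w1, which is raised in a DDT-resistant strain, differed by 0.49 ± 0.66 and -0.07 ± 0.59, with overlap in both sexes.

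**Figure D4:**
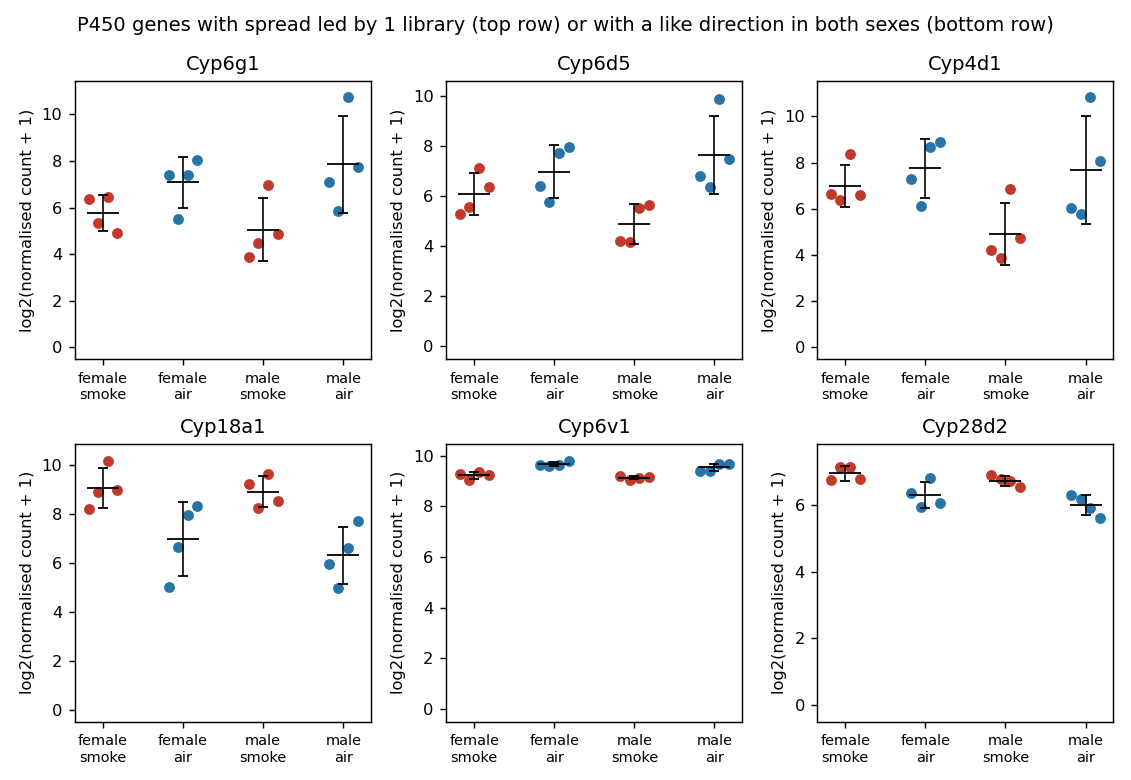
Log2(normalised count + 1) of 6 P450 genes, with 1 point per library and the mean and SD of each group of 4 as bars; red is smoke and blue air. In the top row Cyp6g1, Cyp6d5 and Cyp4d1 each have 1 male air point, replicate 3, above all other male points, at normalised counts of 1697, 941 and 1811; in the bottom row the means of Cyp18a1 and Cyp28d2 are higher in smoke and those of Cyp6v1 lower in smoke in both sexes.

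Among the 28 genes of other families, 0 passed the test in females in either direction. Of the 28, 8 had an unadjusted p under 0.05, as did 2928 of all 8877 genes tested in females. In males 26 were tested, of which 2 rose and 2 fell, against 8.89% and 4.64% of all genes tested. On the recovered reads edgeR gave the same counts, and DESeq2 called 3 higher and 2 lower in females and 2 higher and 10 lower in males. The median difference was -0.09 in females and -0.39 in males. The 28 genes summed to 13693 ± 1811 normalised counts in female smoke, 11396 ± 1596 in female air, 10263 ± 1659 in male smoke and 11834 ± 1748 in male air (SD, n = 4 each).

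Cyp18a1 (FBgn0010383), the clan CYP2 enzyme that inactivates 20-hydroxyecdysone, had higher means in smoke in both sexes. It read 602, 299, 788 and 369 in male smoke and 60.3, 30.4, 95.4 and 209 in male air, without overlap. It read 291, 478, 1154 and 502 in female smoke and 30.9, 100.4, 247 and 321 in female air, where air replicate 4 exceeded the lowest smoke library. The male difference was 2.60 ± 0.57 (adjusted p = 0.0238) and the female one 2.07 ± 0.73 (adjusted p = 0.0873), so it rose in males by the test, and the sexes differed by -0.53 ± 1.00 (adjusted p = 0.887). The male call was lost without male smoke replicate 1, male smoke replicate 3 or male air replicate 1, at adjusted p-values of 0.0744, 0.0606 and 0.0565. Of the other clan CYP2 genes, Cyp303a1, which acts in the development of sensory organs, differed by -0.60 ± 0.25 in females and -0.22 ± 0.22 in males and did not pass.

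Cyp28d2, which with its neighbour Cyp28d1 lies in a mapped locus for larval nicotine resistance, read 117, 108, 105 and 91.3 in male smoke and 77.6, 71.6, 58.5 and 47.9 in male air. It read 106, 139, 139 and 108 in female smoke and 80.4, 59.8, 111 and 65.2 in female air. The male groups did not overlap, and the female groups overlapped through air replicate 3. The differences were 0.73 ± 0.18 in males (adjusted p = 0.0361) and 0.66 ± 0.21 in females (adjusted p = 0.0674). The male call was lost without the filter (adjusted p = 0.0594) and with libraries rescaled to the same total (0.0742), and it passed in 1 of 8 fits without a library, with adjusted p-values up to 0.104 in the others, and the female gene passed in 1 of 8, without female air replicate 3 (adjusted p = 0.0240). Cyp28a5 differed by 0.95 ± 0.41 in females and 0.56 ± 0.57 in males, with adjusted p-values of 0.147 and 0.553. Without female air replicate 3 the female one was 0.0467, the only pass among 8 fits without a library (up to 0.296 in the others).

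Cyp309a1 fell in males, with 1 male air library far above the rest. It read 0.970, 2.56, 0 and 5.85 in male smoke and 10.7, 14.8, 165 and 32.6 in male air, without overlap, and its difference was -3.60 ± 0.95 (adjusted p = 0.0424). Without male air replicate 3 the difference was -2.80 (adjusted p = 0.0685), with a pseudocount of 5 the adjusted p was 0.0617, and the call passed in 1 of 8 fits without a library. Cyp309a1 entered the male test through air libraries alone, so it had to differ. In females it read 6.73, 7.42, 15.1 and 4.00 in smoke and 12.4, 6.13, 25.2 and 16.6 in air (adjusted p = 0.355). Cyp310a1 differed by -1.85 ± 0.94 in females and -2.13 ± 0.91 in males and did not pass in either sex (adjusted p = 0.208 and 0.150). Without female air replicate 2 the female adjusted p was 0.0168, the only pass among 8 fits without a library (up to 0.399 in the others).

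Of the 7 mitochondrial genes, 0 of 7 tested in females and 0 of 6 tested in males passed the limma test. An unadjusted p under 0.05 was found for 0 in females and 3 in males. The counts over all genes tested were 2928 of 8877 and 2742 of 8705. With edgeR 0 mitochondrial genes passed in either sex, and with DESeq2 1 fell in females and 3 fell in males. All 6 male differences were negative, with a median of -0.97, and the female median was -0.18. Clan CYP4, the Cyp4 family with 7 genes of other families, had 6 of 20 genes lower in males with limma and edgeR and 10 with DESeq2, with a median of -1.63, and 2 of 20 higher in females with a median of 0.27. Among all genes tested with limma, 4.64% were lower in males and 10.9% higher in females.

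**Figure D5:**
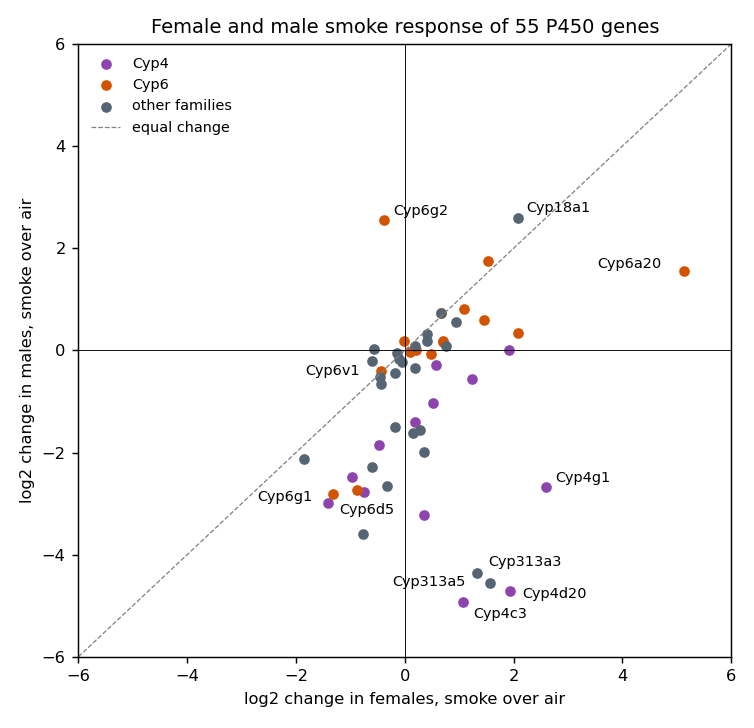
Log2 difference of smoke over air in females (x axis) and males (y axis) for the 55 P450 genes tested in both sexes, coloured by family, with a dashed line of equal change. Most points lie below the line, 45 of 55, and Cyp4c3, Cyp4d20, Cyp313a3, Cyp313a5 and Cyp4g1 lie at the lower right, with positive female and negative male differences.

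Of the genes that P450 enzymes work with, none of the 8 redox partners passed the limma test in either sex. P450 reductase, Cpr, averaged 3654 ± 631 in female smoke and 2813 ± 223 in female air, and 3236 ± 882 in male smoke and 2980.0 ± 223 in male air (SD, n = 4 each). Of 7 tested in females and 8 in males 0 passed with limma or edgeR. With limma 1 in females and 2 in males had an unadjusted p under 0.05. The counts over all genes tested were 2928 of 8877 and 2742 of 8705. DESeq2 called 1 redox partner higher in females and 2 lower in males. Of the 6 ecdysteroid P450 genes that carry other names, 3 were tested in each sex. The 20-hydroxylase gene shd rose in females, at 377 ± 91.0 in smoke and 110.1 ± 45.0 in air, by 1.83 ± 0.33 (adjusted p = 0.00796); in males it averaged 275 ± 78.9 in smoke and 226 ± 163 in air, and 0 of the 3 male genes passed in limma, edgeR or DESeq2, or had an unadjusted p under 0.05 in limma. Of 9 regulators of foreign compound or hormone response, 3 rose in females and 1 in males, as with edgeR; DESeq2 called 4 higher and 1 lower in females. These were cnc, the fly Nrf2 gene, by 0.70 ± 0.08 in females and 0.37 ± 0.09 in males (adjusted p = 0.00175 and 0.0315), its inhibitor Keap1 by 0.50 ± 0.14 in females and Hnf4, a nuclear receptor of lipid metabolism, by 0.65 ± 0.07 in females (adjusted p = 0.0424 and 0.00151). The response of Hnf4 differed between the sexes by 0.56 ± 0.12 (adjusted p = 0.0224). Of 5 genes of juvenile hormone breakdown, 3 were tested in each sex. The epoxide hydrolase gene Jheh3 rose in females by 0.96 ± 0.13 and fell in males by 0.71 on the log2 scale (adjusted p = 0.00267 and 0.0480), and Jheh1 rose in females by 0.57 ± 0.17 (adjusted p = 0.0465). With edgeR the male call of Jheh3 and the female call of Jheh1 were lost, at adjusted p-values of 0.0603 and 0.0532, while DESeq2 called both. The sexes differed in Jheh3 by 1.68 ± 0.25 (adjusted p = 0.00113).

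The authors' deposited table lists 10 P450 genes among 681 higher and 5 among 602 lower genes in females, and 5 among 429 higher and 23 among 1156 lower genes in males. Its listed genes all had an absolute log2 fold change of at least 0.59 and a false discovery rate under 0.1, a wider limit than the one used above. All 5 female and 4 male increases found here were on the authors' deposited list, as were 8 of the 9 male decreases. Cyp6v1 was on neither list of lower genes. The authors' deposited table gives it log2 fold changes of -0.43 in females and -0.41 in males, at false discovery rates of 0.000208 and 0.000944. Both changes were smaller than the 0.59 that all listed genes reached. For Cyp313a5 the authors' deposited table gives 1.17 in females and -2.51 in males, at false discovery rates of 0.00954 and 5.65e-05. For Cyp18a1 the authors' deposited table gives 1.21 in females at a false discovery rate of 0.0241, on its list of higher genes.

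Close to the entry level of 10 in 4 libraries stood Cyp6t3 and Cyp309a1 inside, and Cyp4aa1, Cyp4ac2 and Cyp313a2 outside, each at 10 or more in 3 libraries of a sex. The highest single value outside was 182 in Cyp4aa1, in male air. Of the P450 genes known to respond to foreign compounds or to serve the nervous system, Cyp12d1-p averaged 0.232 in female smoke, 1.06 in female air, 0.506 in male smoke and 1.63 in male air. Its near-identical neighbour Cyp12d1-d had 0 in all 16 libraries, and how reads shared by such copies were counted is not given in the sources used here, so both values are uncertain. Cyp4g15 averaged 3.55 in female smoke, 2.49 in female air, 3.53 in male smoke and 21.3 in male air, the last led by 1 library at 72.5.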

How the data were processed

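RNA was measured in 16 libraries of larval trachea prepared with a NEBNext Ultra kit and sequenced as single reads of 75 bp, per the labels' protocols. The authors deposited 1 table of normalised counts for each sex, a signal made by dividing gene counts by size factors, with their log2 fold changes and p-values adjusted as a false discovery rate, per the file headers. Per the submitters' processing notes STAR 2.6.0c and DESeq2 1.22.2 were used; the read counter, its strand setting and the fly annotation used are not given in these sources. The only genome build in those notes is human while the gene IDs are those of FlyBase, so no coordinates are printed; names, chromosome arms, gene order and transcript lengths come from the Ensembl annotation of the fly genome, where Cyp6a21 had no entry.

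Dividing each column by its smallest value above 0 gave whole reads for 100% of values within 0.01 read, with size factors of 0.750 to 1.30. No 2 replicates of a group differed by as little as sampling noise, with chi-square per degree of freedom of 23.8 to 318 over 24 pairs. Genes at 10 or more in 4 or more of the 8 libraries of 1 sex entered limma 3.58.1, run in R 4.3.3, on log2(normalised count + 1), smoke against air in each sex, and, for the difference between the sexes, in 1 model over 16 libraries with an interaction term. P-values were adjusted by Benjamini-Hochberg over all genes tested, with 0.05 as threshold. On the recovered reads, edgeR 4.0.16 called 924 genes higher and 652 lower in females and 662 higher and 346 lower in males, and DESeq2 1.42.0 called 1235 and 997 in females and 1093 and 878 in males. The fits were tested on simulated data. The analysis was repeated with a pseudocount of 0.5 or 5, without the filter, with a filter of 50, with rescaled libraries, with a replicate block, with the column naming style as a batch term, within each naming style and without each library. Marker levels in CPM come from the recovered reads. Named genes were every P450 gene called, the 3 of each of the Cyp4, Cyp6 and other families with the highest level per kb, and 16 fixed for known roles; others named were chosen after their values were seen. The members and gene lists were chosen with earlier results of these data known.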

Additional observations from a re-analysis of the deposited data

Results flagged for a closer look

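In 132 groups of 4 libraries of the named genes, 20 had a library far from the other 3 by Dixon's test on the normalised counts. Chance flags about 1 of 20 groups where values are independent and normally distributed. These counts were not on a log scale and the genes share libraries, so that rate is no baseline here. Of the 20, 7 lay in male air replicate 3 and 4 in male smoke replicate 3, each the highest of its group. In male air replicate 3 the normalised count of Cyp4d1 was 1811, against 53.7 to 269 in the other male air libraries, and that of Cyp6g1 was 1697, against 56.8 to 211. Cyp4e2 was at 1048 there (others 219 to 297), Cyp6d5 at 941 (others 81.8 to 176), Cyp4e3 at 535 (others 33.5 to 95.8), Cyp6a2 at 215 (others 20.1 to 47.1) and Cyp309a1 at 165 (others 10.7 to 32.6). In male smoke replicate 3 Cyp6g1 was at 124 (others 13.6 to 28.1), Cyp4d1 at 114 (others 13.6 to 25.8), Cyp4c3 at 83.3 (others 8.20 to 18.4) and Cyp4g1 at 43.7 (others 5.85 to 11.6).

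In male smoke replicate 2 Cyp4e3 was high, at 288 against 23.4 to 51.6, and Cyp6a21 was low, at 43.5 against 78.4 to 80.7. In females, smoke replicate 3 was high for Cyp4d1, at 325 against 82.5 to 98.5, and for Cyp310a1, at 50.1 against 6.66 to 13.9, and smoke replicate 4 was high for Cyp6a20, at 171 against 79.1 to 83.4. Female air replicate 3 was high for Cyp4e3, at 1455 against 9.20 to 118, and for Cyp6a2, at 389 against 26.1 to 55.7. Female air replicate 4 was low for Cyp6d4, at 413 against 517 to 526, and female air replicate 1 was high for Cyp6g2, at 153 against 6.13 to 12.1.

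The smoke responses of 4 genes differed between the sexes by the interaction term of limma. The female minus male log2 difference was 6.64 for Cyp4d20, 6.11 for Cyp313a5, 5.98 for Cyp4c3 and 3.57 for Cyp6a20.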

How the results depend on the processing

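Pseudocounts of 0.5 and 5, no filter, both rescalings and edgeR kept each count of P450 genes called within 1.5 times; a filter of 50 left 2 male increases in place of 4. DESeq2 called 8 higher and 5 lower in females and 21 lower in males. A batch term for the naming style gave 9 higher and 2 lower in females. Replicates 1 and 2 alone gave 0 higher and 0 lower in females and 1 higher and 3 lower in males; replicates 3 and 4 alone gave 3 and 0 in females, 0 and 0 in males and 0 differences between the sexes. Leaving out 1 library gave 4 to 9 higher and 1 to 5 lower in females, 0 to 6 higher and 2 to 8 lower in males, and 3 to 5 differences between the sexes. Fits on fewer libraries have fewer samples to test with; the cause of the other changes was not tested.

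Of 75 gene results, 23 were called, and 0 of those 23 turned sign under any alternative. Of the 52 not called, 13 turned sign. For every call within a sex, smoke and air did not overlap, so fits on fewer libraries could not turn its sign. With edgeR and DESeq2 the female difference of Cyp4e3 was -0.78 and -0.79, that of Cyp4g1 -0.22 and -0.23, and the male difference of Cyp6u1 -0.016 and -0.011; with edgeR the sexes differed in Cyp6v1 by 0.0067. Rescaled to the same total, Cyp6d4 in females was at -0.023 and Cyp6u1 in males at -0.071. In replicates 1 and 2 alone Cyp12e1 was at 0.16 in females, and Cyp4e3 at 1.53, Cyp6u1 at -0.0088 and Cyp6w1 at 0.39 in males. In replicates 3 and 4 alone the female values were -0.32 for Cyp4g1, -0.046 for Cyp6a8, 0.41 for Cyp6g2, -0.21 for Cyp6w1 and -0.11 for Cyp9f2, and the sexes differed in Cyp6v1 by 0.11. Over single libraries left out, the female ranges that crossed 0 were -0.13 to 0.062 for Cyp12e1, -0.062 to 0.78 for Cyp6a8, -0.84 to 0.64 for Cyp6g2 and -0.11 to 0.90 for Cyp6w1. The male ranges that did so were -1.29 to 0.26 for Cyp4e3, -0.15 to 0.058 for Cyp6d4, -0.038 to 0.062 for Cyp6u1 and -0.52 to 0.22 for Cyp6w1, and for the sex difference of Cyp6v1 the range was -0.070 to 0.033.

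The labels do not say that replicate numbers pair the samples, and the data give only a hint of it: deviations of same-numbered smoke and air libraries correlated at -0.10 to 0.46, over 0.1 in 6 of 8 pairs and not in all, and 6 of 8 smoke and 6 of 8 air libraries correlated best with their own number. With the replicate number as a block, 9 P450 genes were higher and 2 lower in females, 6 higher and 19 lower in males, and 7 differed between the sexes.

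At 15036560 to 23434521 reads a library, genes near 10 normalised counts, such as Cyp6t3, rest on few reads.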
